A study of Mus musculus with 8 samples.

Results

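The genes described here were 9 receptors and transcription factors of natural killer (NK) cells, namely Ncr1, Klrk1, Klrb1c, Klrd1, Klrc1, Klre1, Klrg1, Eomes and Tbx21. They were listed by name for their known roles in NK cells, and all 9 were found among the 52784 genes of the count table. RNA came from trafficked maternal cells and from recipient cells of F1 pups at 1 week of age, born to CD11c-DTR dams on the C57BL/6 (B6) background and sired by BALB/c males. In CD11c-DTR mice the CD11c promoter drives a diphtheria toxin receptor, so that diphtheria toxin (DT) removes dendritic cells (DC), or any other cell in which that promoter is active, for a short time. DC-depleted dams received DT at 5 ng/g of body weight on embryonic day 13, and DC control dams received saline. On embryonic day 14, at in-utero transplantation (IUT), 5000000 bone marrow mononuclear cells were injected into the fetal liver. The donor was a B6 mouse (CD45.1) in mIUT and a BALB/c mouse in pIUT. Uninjected pups had no IUT and came from dams given either DT or saline, and how many came from each is not given in the sources used here. All pups, also the uninjected and the DC control pups, were thus offspring of CD11c-DTR dams.

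There were 8 libraries, 1 for each origin (maternal or recipient) in each of 4 treatments (uninjected, DC control mIUT, DC control pIUT and DC-depleted pIUT). Each library was a pool of cells from several pups of 1 treatment, sorted magnetically and then by flow cytometry, with H2K-b for maternal and H2K-d for recipient cells. By the paper, more pups were pooled for uninjected than for any IUT group. F1 cells inherit both of these haplotypes, and B6 donor cells also carry H2K-b while BALB/c donor cells carry H2K-d. With 1 library per group there was no replicate error, so no test was made and every comparison is between libraries, not between conditions. Intervals are 95% Poisson intervals and cover counting error only.

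NK cells are lymphocytes that kill target cells without a rearranged antigen receptor, and they weigh signals from activating and inhibitory surface receptors. Most of these receptors in the mouse are lectin-like proteins whose genes lie together in the NK gene complex on chromosome 6. The T-box factors T-bet and EOMES set NK cell identity and maturation, and several of the receptors also appear on CD8+ T cells, NKT cells and other innate lymphoid cells. After transplantation NK cells are known to reject marrow that lacks self histocompatibility molecules.

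The depth of the libraries ran from 38543457 to 47965130 counts, and 9125 to 16231 genes per library reached 10 counts. The origin labels were checked with 4 Y-linked genes (Ddx3y, Eif2s3y, Kdm5d and Uty), which cells of a dam do not carry. Their summed counts were 0 in the maternal uninjected library, but 4572, 1481 and 989 in the libraries labelled maternal mIUT, pIUT and DC-depleted pIUT. These 3 libraries held RNA of cells with a Y chromosome and so go against their label, at least in part, and every maternal comparison with a treatment rests on them. No such comparison can be formed without them. The leukocyte gene Ptprc (CD45) had 3552 to 13164 counts in 7 libraries but 87 counts in the library labelled maternal DC-depleted pIUT, which was the lowest of the 8. The globin genes took 15.4% of that library's counts, against 0.0144% to 16.4% in the other 7.

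Of the 9 genes, 6 lie on chromosome 6 (GRCm39). Klre1 (chr6:129554868-129562791, plus strand), Klrd1 (chr6:129568677-129575738, plus), Klrk1 (chr6:129587286-129600827, minus) and Klrc1 (chr6:129642978-129655936, minus) stand within 101.1 kb, and Klrb1c (chr6:128755448-128766178, minus) and Klrg1 (chr6:122246981-122259914, minus) lie on the side of the lower coordinates. Ncr1 lies at chr7:4340710-4348171 (plus), Eomes at chr9:118307280-118315200 (plus) and Tbx21 at chr11:96988897-97006158 (minus). The 250 bases before the start of the canonical transcript were searched on both strands for the core letters of a T-box site (TCACAC, or GTGTGA on the other strand) and of a RUNX site (ACCNCA, or TGNGGT), since T-bet, EOMES and RUNX3 are factors of NK cells. The T-box letters stood in 2 of the 9 windows (Ncr1 and Klre1) and in 11.6% of 21751 windows of protein-coding genes. The RUNX letters stood in 5 of the 9 (Ncr1, Klrb1c, Klrd1, Klrc1 and Klre1) and in 39.4% of all windows. The windows of Ncr1 and Klrb1c are printed because these genes shared most of their pattern across libraries, and that of Klrk1 because it departed from them. They are given 5′ to 3′ on the strand of the gene, with matches in capitals, and a match is only a match of letters.
Ncr1, chr7:4340460-4340709, plus strand: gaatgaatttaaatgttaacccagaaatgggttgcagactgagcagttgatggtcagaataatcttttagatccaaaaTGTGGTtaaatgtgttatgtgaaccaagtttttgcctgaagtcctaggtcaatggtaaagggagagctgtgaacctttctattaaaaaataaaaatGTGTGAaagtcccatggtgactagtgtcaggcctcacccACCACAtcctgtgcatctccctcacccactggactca
Klrb1c, chr6:128765605-128765854, minus strand: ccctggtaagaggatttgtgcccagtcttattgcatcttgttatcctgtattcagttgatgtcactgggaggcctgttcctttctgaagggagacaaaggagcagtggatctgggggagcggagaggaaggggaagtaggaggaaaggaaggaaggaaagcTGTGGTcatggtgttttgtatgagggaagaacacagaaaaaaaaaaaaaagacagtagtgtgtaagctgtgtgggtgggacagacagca
Klrk1, chr6:129599736-129599985, minus strand: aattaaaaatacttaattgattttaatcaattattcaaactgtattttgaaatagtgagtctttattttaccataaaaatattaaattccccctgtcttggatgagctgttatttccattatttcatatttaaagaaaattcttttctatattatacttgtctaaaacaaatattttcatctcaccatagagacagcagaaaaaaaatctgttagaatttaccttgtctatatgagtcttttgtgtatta
Ncr1 held 1 T-box match, which began 76 bases before the start, and RUNX matches that began 172 and 37 bases before it. Klrb1c held 1 RUNX match, 89 bases before the start. The Klrk1 window, with 23.6% G and C, held neither.

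The activating receptors differed in where they were detected. Ncr1 encodes NKp46, the receptor most restricted to NK cells and related innate cells. It had 2256 counts (58.0 CPM, the count scaled to the size of its library) in the maternal uninjected library, 25 (0.872 CPM) in recipient mIUT, 2184 (48.4 CPM) in recipient pIUT and 3606 (65.8 CPM) in recipient DC-depleted pIUT. It was at 0 in the recipient uninjected library and in the 3 treated libraries labelled maternal. A count of 0 is taken to allow up to 3 counts, which is 0.0547 to 0.105 CPM over the 8 libraries. This limit covers the counting of reads only, and every fold given as at least rests on it. A 0 can stand beside high counts in these pools. The library labelled maternal mIUT had 2988 counts of Eif2s3y and 1584 of Uty but 0 of Ddx3y and Kdm5d. Recipient uninjected had 3122 of Uty and 0 of Ddx3y. Whether a 0 means that the cells lacked a transcript was not tested.

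Klrb1c encodes NK1.1, a surface protein by which NK cells of B6 mice are stained. It had 5695 counts (146 CPM) in the maternal uninjected library, its highest level in the 8. The recipient libraries had 0 counts when uninjected, 18 (0.628 CPM) after mIUT, 1112 (24.6 CPM) after pIUT and 1990 (36.3 CPM) after DC-depleted pIUT. The libraries labelled maternal had 0 after mIUT, 0 after pIUT and 37 (1.12 CPM) after DC-depleted pIUT. Ncr1 and Klrb1c were thus both above 3 counts in the same 4 libraries, and Klrb1c alone in the library labelled maternal DC-depleted pIUT. In 3 of those 4 libraries the genes were far above the floor, and their proportion differed. There were 0.396 counts of Ncr1 for each count of Klrb1c in the maternal uninjected library (interval 0.377 to 0.416), 1.96 in recipient pIUT (1.83 to 2.11) and 1.81 in recipient DC-depleted pIUT (1.72 to 1.92). Of the 2602 distinct stretches of 31 bases in the Klrb1c transcript, 21.1% also occur in other genes, which can shift reads between them, while none of those of Ncr1 do. The recipient cells carry 1 BALB/c haplotype while the reference genome is B6, and the part of this in the counts was not tested.

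Klrk1 encodes NKG2D, which recognises stress-induced ligands and is also present on activated CD8+ T cells. It had 2100 counts (54.0 CPM) in the maternal uninjected library, 2326 (60.1 CPM) in that labelled maternal mIUT, 1345 (26.6 CPM) in that labelled maternal pIUT and 0 in that labelled maternal DC-depleted pIUT. In the recipient libraries it had 909 counts (18.8 CPM) when uninjected, 0 after mIUT, 1437 (31.8 CPM) after pIUT and 1740 (31.7 CPM) after DC-depleted pIUT. Klrk1 was therefore high in 3 libraries in which Ncr1 was at 0. Hcst, which encodes the adaptor DAP10 through which NKG2D signals, had 4928 counts in the recipient mIUT library, where Klrk1 was at 0, and 4942 in that labelled maternal mIUT, where Klrk1 had its highest count.

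**Figure D1:**
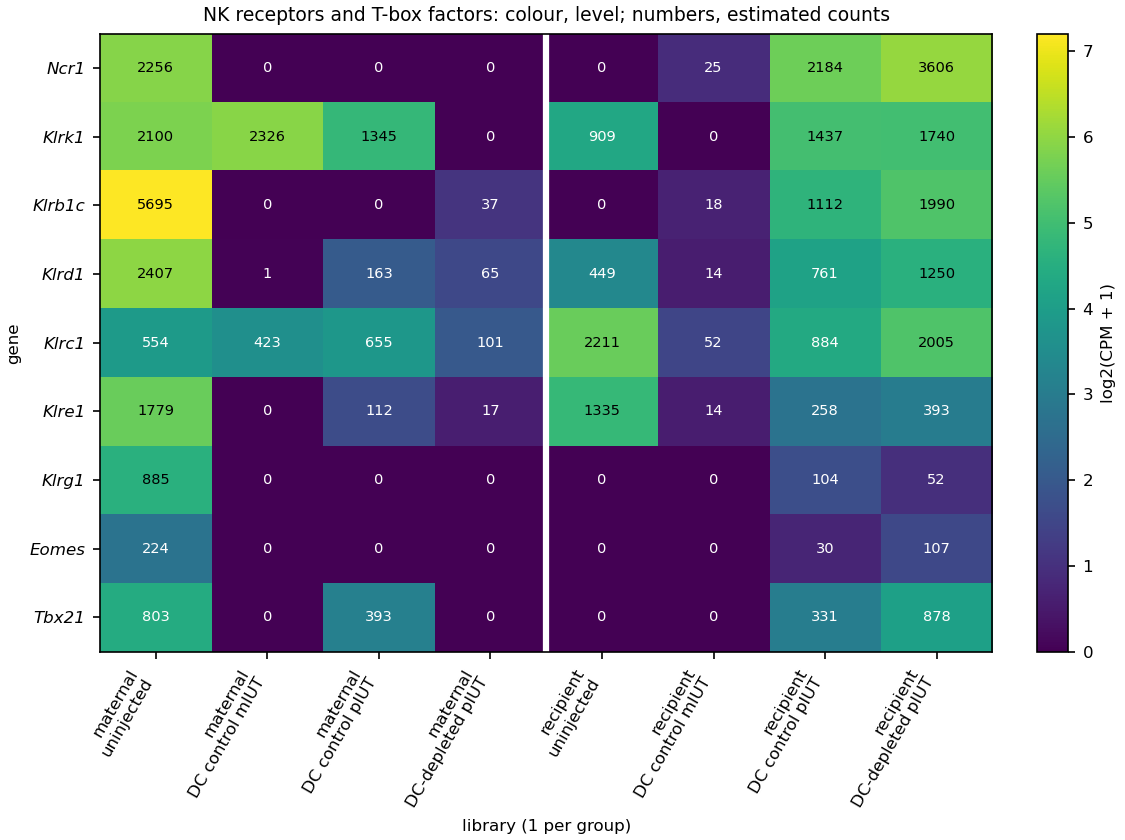
Estimated counts (numbers) and levels as log2(CPM + 1) (colour) of the 9 genes (rows) in the 8 libraries (columns), maternal libraries left of the white line and recipient libraries right of it. All 9 genes are above 3 counts in the maternal uninjected, recipient pIUT and recipient DC-depleted pIUT libraries, and 2 to 5 of the 9 in each of the other 5 libraries.

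The genes of the CD94/NKG2 group were detected more widely. Klrd1 encodes CD94, the common partner of the NKG2 chains. It had 2407 counts (61.9 CPM) in the maternal uninjected library, then 1, 163 (3.22 CPM) and 65 (1.97 CPM) in those labelled maternal mIUT, pIUT and DC-depleted pIUT. Its recipient counts were 449 (9.28 CPM) in uninjected, 14 (0.488 CPM) in mIUT, 761 (16.9 CPM) in pIUT and 1250 (22.8 CPM) in DC-depleted pIUT.

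Klrc1 encodes the NKG2A family chain that, with CD94, inhibits the cell on binding the Qa-1 molecule. It was the only one of the 9 genes above 3 counts in all 8 libraries. It had 554 counts (14.2 CPM) in the maternal uninjected library and 423 (10.9 CPM), 655 (12.95 CPM) and 101 (3.06 CPM) in those labelled maternal mIUT, pIUT and DC-depleted pIUT. In the recipient libraries it had 2211 (45.7 CPM) in uninjected, 52 (1.81 CPM) in mIUT, 884 (19.6 CPM) in pIUT and 2005 (36.6 CPM) in DC-depleted pIUT. Of the stretches of 31 bases in its transcript 54.5% occur in another gene, most of them in Klrc2, so the division of reads between these paralogs is uncertain. Klrc2, which encodes the activating chain NKG2C, had 267, 192 and 355 counts in the maternal uninjected, recipient pIUT and recipient DC-depleted pIUT libraries, 7 in that labelled maternal DC-depleted pIUT and 0 in the other 4.

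The balance of the 2 partners differed between libraries by more than counting error. There were 0.230 counts of Klrc1 for each count of Klrd1 in the maternal uninjected library (interval 0.209 to 0.253), and 1.16 (1.05 to 1.28) to 4.92 (4.45 to 5.46) in the 6 other libraries in which Klrd1 was above 3 counts. In the library labelled maternal mIUT, Klrc1 had 423 counts beside 1 of Klrd1. Klre1, the gene of a further lectin-like receptor of the complex, had 1779 counts (45.7 CPM) in the maternal uninjected library and 0, 112 (2.21 CPM) and 17 (0.515 CPM) in those labelled maternal mIUT, pIUT and DC-depleted pIUT. Its recipient counts were 1335 (27.6 CPM), 14 (0.488 CPM), 258 (5.71 CPM) and 393 (7.17 CPM) in uninjected, mIUT, pIUT and DC-depleted pIUT. Per count of Klrd1 there were 2.97 counts of Klre1 in the recipient uninjected library (2.67 to 3.32) and 0.314 (0.280 to 0.352) in recipient DC-depleted pIUT.

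Klrg1, an inhibitory receptor for cadherins that marks mature NK cells and effector T cells, and the T-box gene Eomes were above 3 counts in 3 libraries, and the T-box gene Tbx21, like Ncr1, in 4. Klrg1 had 885 counts (22.7 CPM) in the maternal uninjected library, 104 (2.30 CPM) in recipient pIUT, 52 (0.949 CPM) in recipient DC-depleted pIUT and 0 in the other 5. Eomes followed the same 3 libraries, with 224 counts (5.76 CPM), 30 (0.664 CPM) and 107 (1.95 CPM), and was at 0 in the other 5. Tbx21, the gene of T-bet, had 803 counts (20.6 CPM), 331 (7.33 CPM) and 878 (16.0 CPM) in these libraries. Tbx21 also had 393 counts (7.77 CPM) in the library labelled maternal pIUT, where Eomes and Ncr1 were at 0, and it was at 0 in the remaining 4. There were 3.58 counts of Tbx21 for each of Eomes in the maternal uninjected library (3.09 to 4.18), 11.0 (7.58 to 16.6) in recipient pIUT and 8.21 (6.71 to 10.1) in recipient DC-depleted pIUT.

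Per kilobase of transcript, Klrd1 was the most abundant of the 9 in the maternal uninjected library (64.2 CPM per kilobase), ahead of Klrb1c (55.6) and Ncr1 (39.1). Eomes was the least abundant there, at 1.56 CPM per kilobase. In recipient DC-depleted pIUT, Ncr1 led with 44.3 CPM per kilobase, ahead of Klrd1 (23.7) and Klrc1 (18.4). The make-up of the 9 genes' summed counts differed as well. Klrk1 took 84.6% of the 2750 counts in the library labelled maternal mIUT (95% exact binomial interval 83.2% to 85.9%) and 12.6% of the 16703 counts in the maternal uninjected library (12.1% to 13.1%). Klrc1 took 45.1% of the 4904 counts in the recipient uninjected library (43.7% to 46.5%) and 3.32% in the maternal uninjected library (3.05% to 3.60%). In recipient pIUT and recipient DC-depleted pIUT, Ncr1 took 30.8% and 30.0% and Klrb1c 15.7% and 16.6%. Klrk1 took 20.2% and 14.5%, Klrc1 12.4% and 16.7%, Tbx21 4.66% and 7.30%, Klrg1 1.46% and 0.433%, and Eomes 0.422% and 0.890%. The spread of such shares between pools is unknown.

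**Figure D2:**
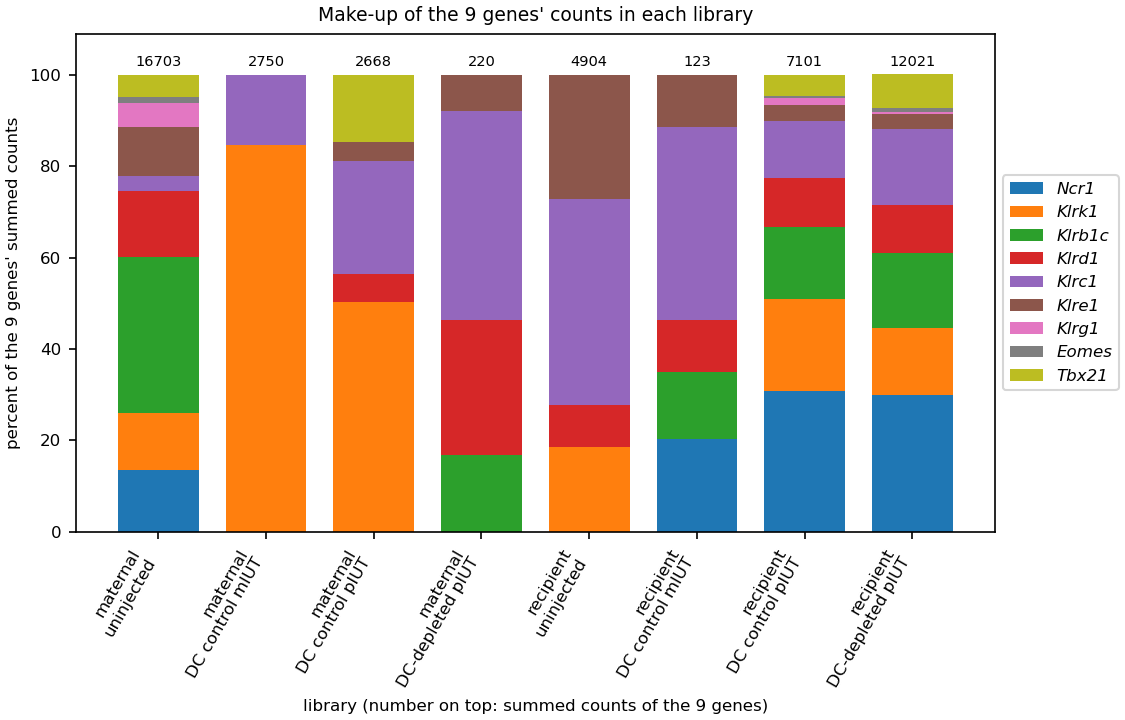
Percent of the summed counts of the 9 genes that each gene takes, by library, with the summed counts above each bar. Klrk1 and Klrc1 make up nearly all of the bar in the library labelled maternal mIUT, and Ncr1 takes 30.8% and 30.0% of the bars of recipient pIUT and recipient DC-depleted pIUT, where Klrk1 takes 20.2% and 14.5%.

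The first comparison asked how the 9 genes in the maternal libraries differed between the IUT groups and uninjected pups. A gene was counted as higher or lower where CPM differed by at least 4-fold and the higher library had at least 10 counts, with counts of 3 or fewer set to 3. In bulk samples, fewer cells of a type and less RNA per cell cannot be told apart. In the library labelled maternal mIUT, 7 of the 9 genes were lower and 0 higher, beside 36.4% lower and 17.9% higher of all 14404 genes tested. Klrb1c was at least 1889-fold lower, Ncr1 at least 748-fold, Klre1 at least 590-fold, Klrg1 at least 294-fold, Tbx21 at least 266-fold and Eomes at least 74.3-fold. For Klrd1, at 2407 counts against 1, the interval of the fall ran from 429-fold to 94636-fold. Klrk1 was 1.11-fold higher (1.05 to 1.18) and Klrc1 1.30-fold lower (1.15 to 1.48). The median log2 ratio of the 9 was -8.20, beside -0.60 over all genes tested.

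In the library labelled maternal pIUT, 6 of the 9 were lower and 0 higher, beside 23.7% lower and 24.2% higher of 15718 genes. Klrb1c was at least 2468-fold lower and Ncr1 at least 978-fold, while Klrd1 was 19.2-fold lower (16.4 to 22.6) and Klre1 20.7-fold lower (17.1 to 25.2). Klrk1, Klrc1 and Tbx21 stayed within 4-fold, being 2.03-fold (1.89 to 2.17), 1.10-fold (0.980 to 1.23) and 2.66-fold (2.35 to 3.004) lower. The median log2 ratio of the 9 was -4.37, beside 0.05 over all genes.

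In the library labelled maternal DC-depleted pIUT, all 9 genes were lower, beside 26.1% lower and 23.6% higher of 15511 genes. Klrc1 had the smallest fall, of 4.65-fold (3.76 to 5.81), and Klrb1c was 131-fold lower (94.6 to 186). Klrk1, with 0 counts here and 2326 and 1345 in the other 2 libraries labelled maternal with IUT, was at least 594-fold lower. Relative to Ptprc, which had 87 counts in that library, 2 of the 9 genes were lower and 1 was higher, beside 0.825% lower and 89.9% higher of all genes. That scaling shifts every gene alike and moved the median log2 ratio over all genes from -0.02 to 6.43, so the place of the 9 genes below the median gene does not turn on it.

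The same question was asked of recipient cells, in which 5 of the genes were higher after pIUT. In recipient pIUT, Ncr1 was at least 780-fold higher than in the recipient uninjected library, Klrb1c at least 397-fold, Tbx21 at least 118-fold, Klrg1 at least 37.1-fold and Eomes at least 10.7-fold. Klre1 was 4.83-fold lower (4.23 to 5.54). Klrk1 was 1.69-fold (1.56 to 1.84) and Klrd1 1.81-fold (1.61 to 2.04) higher, and Klrc1 was 2.34-fold lower (2.16 to 2.53). That made 5 of 9 higher and 1 lower, beside 45.4% higher and 13.3% lower of 15458 genes. A share of 5 in 9 is near that of all genes. The recipient uninjected library had the fewest genes with at least 10 counts (9125). The median log2 ratio was 3.42, beside 1.36 over all genes.

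Recipient DC-depleted pIUT had the same 5 genes higher and 0 lower, beside 47.1% higher and 11.0% lower of 16727 genes. Ncr1 was at least 1060-fold higher, Klrb1c at least 585-fold, Tbx21 at least 258-fold, Eomes at least 31.5-fold and Klrg1 at least 15.3-fold. Klre1 was 3.85-fold lower (3.44 to 4.32).

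In recipient mIUT, 6 of the 9 genes reached 10 counts in either library. Ncr1 was at least 14.1-fold and Klrb1c at least 10.1-fold higher, on 25 and 18 counts. Klrk1 was at least 180-fold lower, Klre1 56.5-fold (33.6 to 104), Klrc1 25.2-fold (19.2 to 33.9) and Klrd1 19.0-fold (11.2 to 35.1) lower. This was 2 higher and 4 lower, beside 45.0% higher and 17.6% lower of 14404 genes. With at least 50 counts required, 0 were higher.

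**Figure D3:**
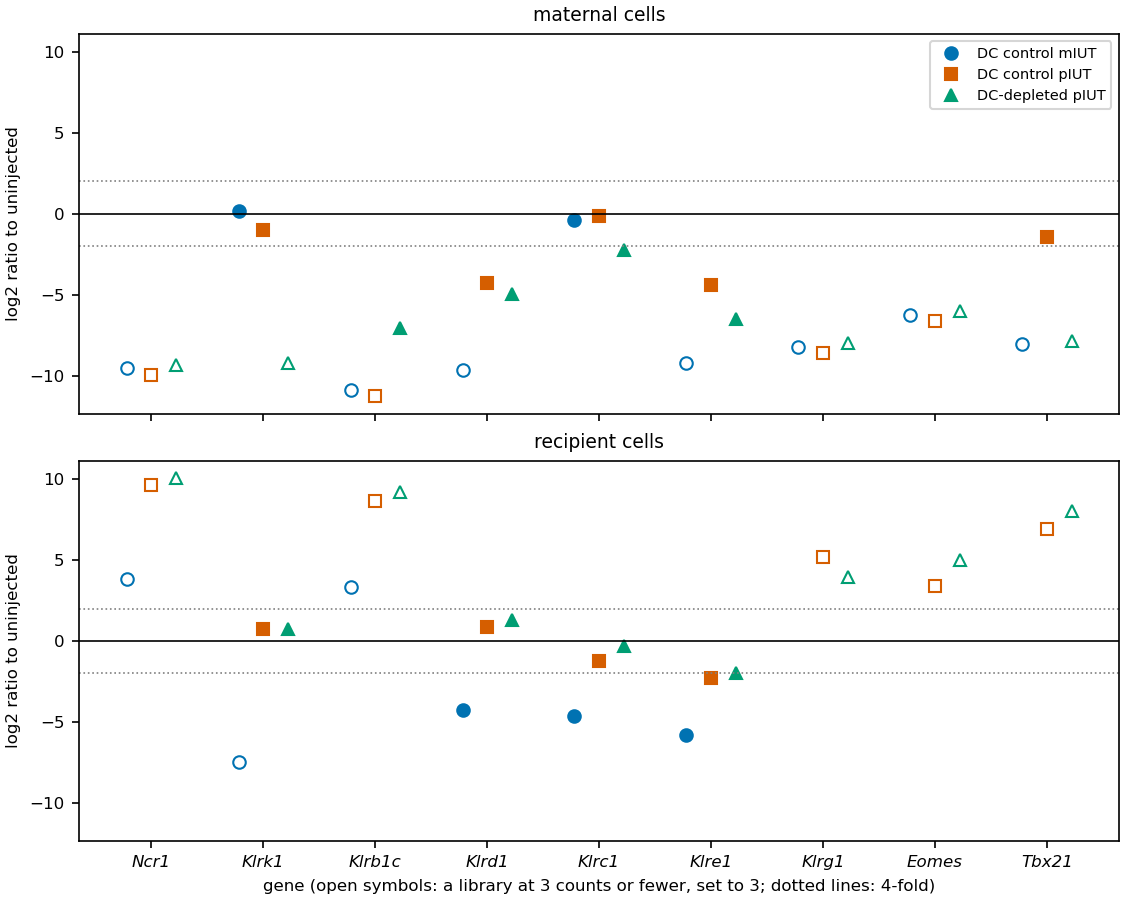
Log2 ratio of CPM to the uninjected library of the same origin for each of the 9 genes in the 3 IUT groups, with maternal libraries above and recipient libraries below. Open symbols mark ratios in which a library had 3 counts or fewer, set to 3, and dotted lines mark 4-fold. No maternal value is above the upper dotted line, and Ncr1 and Klrb1c are above it in all 3 recipient comparisons.

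The comparison of DC-depleted with DC control pIUT addressed maternal DC depletion. In recipient cells 0 of the 9 genes passed 4-fold in either direction, beside 14.4% higher and 7.21% lower of 17219 genes. Eomes was 2.94-fold higher (1.94 to 4.57), Tbx21 2.18-fold (1.92 to 2.49), Klrc1 1.87-fold (1.73 to 2.02), Klrb1c 1.47-fold (1.37 to 1.59) and Ncr1 1.36-fold higher (1.29 to 1.43). Klrg1 was 2.43-fold lower (1.72 to 3.46), and Klrk1 differed by 1.00-fold (0.930 to 1.07 as DC-depleted over DC control). These intervals hold counting error only, and with 1 pool on each side the spread between pools is unknown. At a 2-fold threshold 2 of the 9 were higher (Eomes and Tbx21) and 1 lower (Klrg1), beside 25.4% and 14.1% of all genes, which is near the background.

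In the libraries labelled maternal, 6 of the 9 genes reached 10 counts in either, and of these 1 was higher and 4 lower with DC depletion, beside 24.9% higher and 28.2% lower of 15663 genes. Klrk1 was at least 293-fold and Tbx21 at least 85.5-fold lower. Klre1 was 4.30-fold (2.57 to 7.64) and Klrc1 4.23-fold (3.43 to 5.27) lower. Klrb1c was at least 18.9-fold higher, on 37 counts against 0. Relative to Ptprc, 4 were higher and 1 lower, beside 78.1% and 4.62% of all genes.

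Recipient and maternal libraries of the same treatment were set against each other. Among uninjected pups 6 of the 9 genes were lower in the recipient library and 0 higher, beside 41.3% lower and 15.1% higher of 14028 genes. Ncr1 was at least 934-fold and Klrb1c at least 2359-fold lower, and Klrd1 was 6.66-fold lower (6.02 to 7.39). Klrc1 was 3.21-fold higher in the recipient library (2.92 to 3.53). After mIUT, 4 of 6 genes tested were higher in the recipient library and 2 lower, beside 35.9% higher and 13.4% lower of 14287 genes, and the 4 that were higher had 14 to 25 counts. With at least 50 counts required, with a floor of 10 counts or relative to Ptprc (24.5% of all genes higher), 0 were higher. After pIUT, 5 of 9 were higher and 0 lower, beside 25.3% higher and 19.0% lower of 16443 genes. Tbx21 (1.06-fold lower, 0.914 to 1.23), Klrk1 (1.20-fold higher, 1.11 to 1.29) and Klrc1 (1.51-fold higher, 1.37 to 1.68) were close in the 2 libraries. After DC-depleted pIUT all 9 were higher, beside 28.3% higher and 9.61% lower of 17067 genes, with Klrg1 at least 10.4-fold and Ncr1 at least 724-fold higher. Relative to Ptprc this last count became 2 higher and 4 lower, beside 0.357% and 90.4% of all genes, but Klrg1, with 52 counts against 0, is among the latter only because a count of 0 is set to 3.

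mIUT and pIUT differ in the donor strain, and their values are given side by side. In recipient cells Ncr1 had 25 counts after mIUT and 2184 after pIUT, and Klrk1 had 0 and 1437. In the libraries labelled maternal, Klrk1 went from 2326 after mIUT to 1345 after pIUT, Klrc1 from 423 to 655 and Tbx21 from 0 to 393. Neutrophil markers also differed between these groups. The 6 neutrophil genes summed to 161645 CPM in recipient mIUT and 27491 CPM in recipient pIUT, and to 99689 and 1272 CPM in the libraries labelled maternal mIUT and pIUT. Their part in the values of the 9 genes was not tested.

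The other lectin-like receptors of the NK gene complex were described from a list of 20 genes. Against uninjected, 14, 15 and 16 of the 16 tested were lower in the libraries labelled maternal mIUT, pIUT and DC-depleted pIUT, and 0 were higher in each. The shares of all genes that were lower in these 3 comparisons were 36.4%, 23.7% and 26.1%. In recipient cells 6 of 7, 11 of 13 and 12 of 15 were higher after mIUT, pIUT and DC-depleted pIUT, beside 45.0%, 45.4% and 47.1% of all genes. The lists that follow are read against these same shares. In the recipient uninjected library, however, 18 of the 20 genes were at 0. A gene at 0 there could be called higher or neither, but not lower, here and in the lists that follow. Most of the genes tested in recipient cells could thus not be called lower, and their counts higher are not read as a result about the list. The median log2 ratios were -6.70, -7.06 and -5.90 in the libraries labelled maternal and 3.26, 5.02 and 4.14 in the recipient libraries. The medians over all genes tested were -0.60, 0.05 and -0.02 in the former and 1.22, 1.36 and 1.69 in the latter. Cd69, an early activation marker of lymphocytes, had 7723 counts in the maternal uninjected library and 0, 1466 and 34 in those labelled maternal mIUT, pIUT and DC-depleted pIUT. Klra4, a Ly49 receptor gene, had 1534 counts in the maternal uninjected library and 0 or 1 in the other 7. Klra2 and Klra17 did not follow the 9 genes. Klra2 was highest in recipient mIUT, with 3504 counts, and Klra17 also, with 2457 counts.

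The 11 Ly49 (Klra) genes of the list summed to 5892 counts in the maternal uninjected library, 2637 in recipient pIUT and 2148 in recipient DC-depleted pIUT, or 35.3, 37.1 and 17.9 for each 100 counts of the 9 genes. Their sum ran from 116 to 5999 counts in the other 5 libraries. By the sum for each 100 counts recipient pIUT was close to maternal uninjected, but the genes within it differed. The 8 Klra genes other than Klra2, Klra5 and Klra17, a set chosen after their values were seen, summed to 4659 counts in the maternal uninjected library, or 27.9 for each 100 counts of the 9 genes. They summed to 70 counts (0.986 per 100) in recipient pIUT, 126 (1.05 per 100) in recipient DC-depleted pIUT and 0 in the other 5. Klra5, by contrast, was at 0 in the maternal uninjected library and had 727 and 1414 counts in these recipient libraries. Ly49 genes differ in number and sequence between B6 and BALB/c mice, and the part of the reference genome in these counts was not tested.

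**Figure D4:**
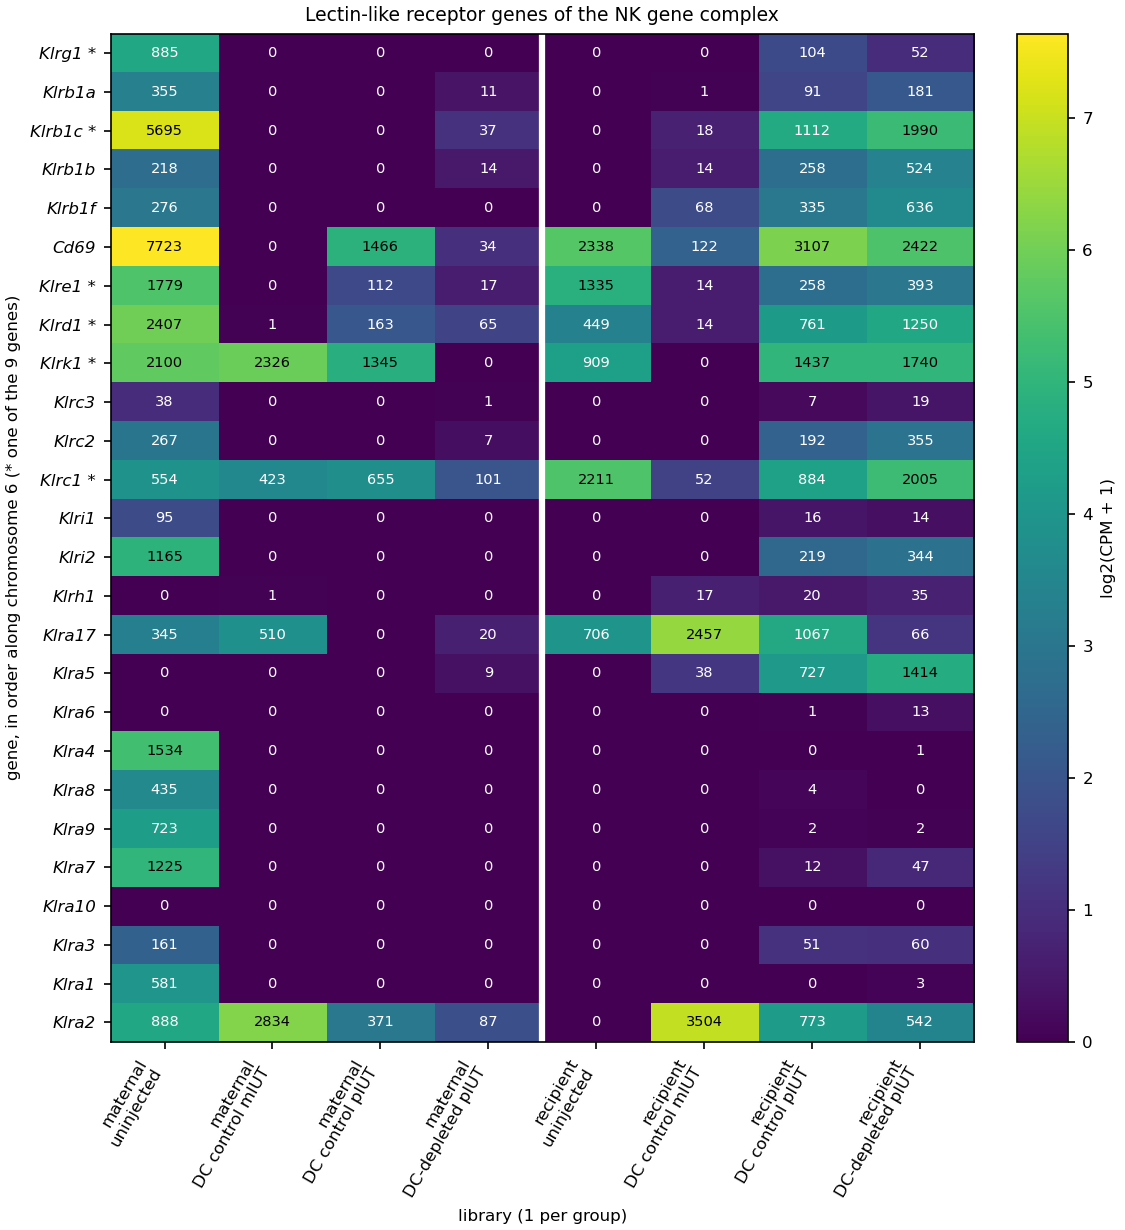
Counts (numbers) and log2(CPM + 1) (colour) of the lectin-like receptor genes of the NK gene complex and Klrg1, in their order along chromosome 6, in the 8 libraries. Asterisks mark those among the 9 genes. The columns of the maternal uninjected, recipient pIUT and recipient DC-depleted pIUT libraries are filled over most of the complex, and the Ly49 genes from Klra4 to Klra1 are filled mainly in the maternal uninjected library.

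NK effector genes did not all follow the receptors. Of 12 genes, 4 of 11, 6 of 11 and 11 of 12 tested were lower in the libraries labelled maternal mIUT, pIUT and DC-depleted pIUT, with 0, 1 and 1 higher (all genes: 17.9%, 24.2% and 23.6%). Beside the 36.4% of all genes, 4 of 11 is no more than the background. In recipient cells 5 of 10 were higher and 5 lower after mIUT, beside 45.0% and 17.6% of all genes, so that the higher count is near the background. After pIUT and after DC-depleted pIUT 7 of 12 were higher, beside 45.4% and 47.1% of all genes, and 1 was lower, beside 13.3% and 11.0%. The medians were -1.65, -6.63 and -6.89 in the libraries labelled maternal and 0.56, 5.28 and 6.89 in the recipient libraries. Gzma, which encodes granzyme A, had 19016 counts in the maternal uninjected library and 6047, 7000 and 2739 in those labelled maternal mIUT, pIUT and DC-depleted pIUT. Its recipient counts were 23, 982, 25460 and 35553 in uninjected, mIUT, pIUT and DC-depleted pIUT. Gzmb, the gene of granzyme B, was highest in the library labelled maternal mIUT, with 25096 counts, where Ncr1 was at 0. Ccl3, a chemokine gene, was highest in that labelled maternal pIUT, with 36843 counts against 4316 in uninjected. Nkg7, a cytotoxic granule gene, had 18219 counts in the maternal uninjected library and 239 to 4636 in the other 3 labelled maternal.

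Among 17 other NK transcription factors, 11, 12 and 13 of the 16 tested were lower in the libraries labelled maternal mIUT, pIUT and DC-depleted pIUT, against 36.4%, 23.7% and 26.1% of all genes. In the recipient libraries 7 of 15, 7 of 16 and 8 of 17 were higher, which is near the 45.0%, 45.4% and 47.1% of all genes. The medians were -3.90, -4.84 and -4.97 in the former and 1.78, 1.13 and 0.76 in the latter. Id2, which restrains E proteins in innate lymphocytes, had 29098 counts in the library labelled maternal mIUT against 6215 in maternal uninjected, and Tcf7, the gene of TCF-1, 594 against 9675. Ets1, needed for NK cell development, had 19254 counts in the maternal uninjected library and 352 to 2740 in the other 3 labelled maternal. Irf8 had 16357 counts in the maternal uninjected library and 201 to 2487 in those 3.

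Of 11 genes of cytokine receptors and IL-15, 7 of 10, 8 of 11 and 7 of 10 tested were lower in the libraries labelled maternal mIUT, pIUT and DC-depleted pIUT (all genes: 36.4%, 23.7% and 26.1%). In recipient cells 9, 8 and 8 of 11 were higher (all genes: 45.0%, 45.4% and 47.1%). Of the 11 genes, 6 were at 0 in the recipient uninjected library and could not be called lower against it. The medians were -4.53, -4.52 and -5.47 in the former and 4.03, 5.95 and 5.73 in the latter. Il2rb, which encodes the chain shared by the IL-2 and IL-15 receptors, had 6031 counts in the maternal uninjected library and 1384, 527 and 39 in the other 3 labelled maternal. Its recipient counts were 0, 289, 3470 and 5343 in uninjected, mIUT, pIUT and DC-depleted pIUT. Il2rg, the common gamma chain, fell from 34524 counts to between 331 and 1463 in the libraries labelled maternal. Not all genes of the list followed these. Il18rap had 89 counts in the maternal uninjected library and 478, 0 and 84 in the other 3 labelled maternal. It was highest in recipient mIUT, with 7686 counts. Ifngr1 had 15695 counts in the maternal uninjected library and 5953, 1412 and 6944 in the other 3 labelled maternal.

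The adaptors that carry the receptors' signals are shared with myeloid cells. Of 14 genes, 7, 8 and 12 were lower in the libraries labelled maternal mIUT, pIUT and DC-depleted pIUT, where 36.4%, 23.7% and 26.1% of all genes were. In recipient cells 6 of 13, 6 of 13 and 3 of 14 were higher, of which the first 2 are near the 45.0% and 45.4% of all genes and the last is below their 47.1%. The medians were -1.44, -3.16 and -3.53 in the former and 1.25, 0.16 and 0.26 in the latter. The sum of the 14 was 2513 CPM in the maternal uninjected library and 3340, 829.7 and 330.1 CPM in those labelled maternal mIUT, pIUT and DC-depleted pIUT. Tyrobp, which encodes DAP12, had 5004 to 81005 counts and Fcer1g 1870 to 44755, both highest in recipient mIUT, where the 9 genes summed to 123 counts. Among 17 other surface receptors, 7, 9 and 10 of 16 were lower in the libraries labelled maternal, and 7 of 13, 6 of 14 and 8 of 16 higher in recipient cells, in the same order. Of all genes, 36.4%, 23.7% and 26.1% were lower in the former and 45.0%, 45.4% and 47.1% higher in the latter, so the recipient counts are near the background. The medians of these receptors were -1.05, -2.89 and -3.87 in the former and 2.26, 0.80 and 1.33 in the latter. Their sum was 796.7 CPM in the maternal uninjected library and 1578, 483.5 and 130.7 CPM in those labelled maternal mIUT, pIUT and DC-depleted pIUT. Fcgr3, an Fc receptor gene of NK and myeloid cells, had 1975 to 52804 counts and was also highest in recipient mIUT. Slamf6, a receptor of T and NK cells, had 7413 counts in the maternal uninjected library and 1 to 205 in the other 3 labelled maternal.

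Of 14 genes for ligands of the receptors, 3 of 7, 6 of 8 and 5 of 7 tested were lower in the libraries labelled maternal mIUT, pIUT and DC-depleted pIUT, and 5 of 8, 6 of 9 and 8 of 12 higher in the recipient libraries. The shares of all genes were 36.4%, 23.7% and 26.1% lower and 45.0%, 45.4% and 47.1% higher, and 3 of 7 is near the first of these. Of the 14 genes, 10 were at 0 in the recipient uninjected library and could not be called lower against it. The medians were -1.39, -2.95 and -3.03 in the former and 2.56, 4.10 and 2.80 in the latter. H2-T23, the gene of Qa-1 that CD94/NKG2A binds, had 25821 counts in the maternal uninjected library and 9810, 5514 and 2252 in the other 3 labelled maternal. Cdh2, a cadherin gene whose product KLRG1 can bind, had 2839 counts in that labelled maternal pIUT and at most 41 in the other 7.

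Markers of other cell types moved with the groups as well. The 12 T-cell genes summed to 2782 CPM in the maternal uninjected library and 650, 176 and 656 CPM in those labelled maternal mIUT, pIUT and DC-depleted pIUT. In the recipient libraries they summed to 928, 867, 4847 and 1170 CPM in uninjected, mIUT, pIUT and DC-depleted pIUT. Cd3g had 1211 to 25692 counts and was thus present in all 8 libraries. The library labelled maternal mIUT, with the highest Klrk1, had 642 counts of Cd8a and 2 TRA clonotypes among 510 TRA reads. Cd8a was looked up after the values of Klrk1 were seen. Of 12 markers of other innate lymphoid cells, 2 to 10 were above 3 counts in a library, and their summed level ran from 18.2 to 130 CPM. Cxcr6, a chemokine receptor gene of tissue-resident lymphocytes, had its highest count, 3264, in recipient DC-depleted pIUT, against 1573 in maternal uninjected. The part of T cells and other innate lymphoid cells in the levels of the 9 genes was not tested.

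The remaining lists varied over wide ranges. The 6 B-cell genes summed to 6824 CPM in the maternal uninjected library and to between 32.5 and 1258 CPM in the other 7. The 6 DC genes summed to 0 CPM in the library labelled maternal mIUT and to between 9.21 and 79.2 CPM elsewhere. Monocyte and macrophage genes ran from 92.0 to 1781 CPM, mast-cell and basophil genes from 41.4 to 804 CPM, neutrophil genes from 1272 to 161645 CPM and erythroid genes from 210 to 180690 CPM. In the recipient uninjected library, Krt8 and Krt18, epithelial keratins, had 54919 and 61017 counts, against at most 4835 in any other. Klrk1, Klrd1, Klrc1 and Klre1 were above 3 counts in that library and Ncr1 was at 0. The part of these cells in the levels of the 9 genes was not tested.

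**Figure D5:**
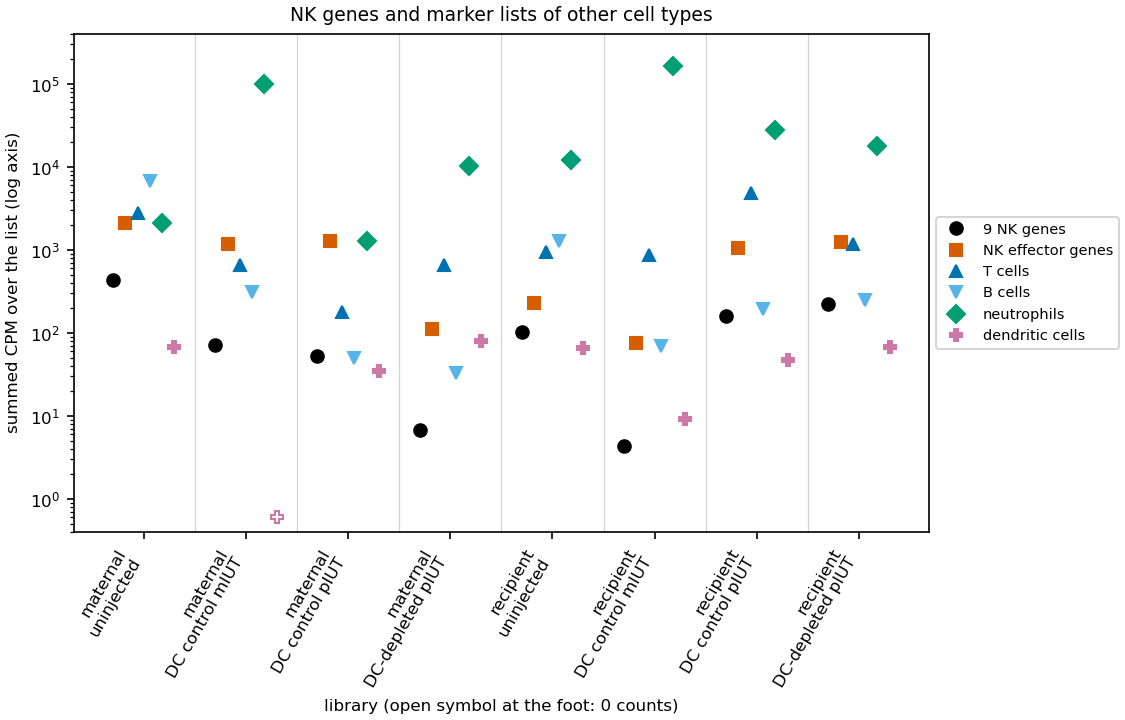
Summed CPM (log axis) of the 9 NK genes, the NK effector genes and the marker lists of 4 other cell types in the 8 libraries. The open symbol marks a sum of 0, for DC genes in the library labelled maternal mIUT. The 9 NK genes run from 4.29 CPM in recipient mIUT to 429 CPM in maternal uninjected.

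Invariant NKT cells, which can carry NK1.1, rearrange TRAV11 with TRAJ18. Such reads were found in the library labelled maternal pIUT, with 64 of 312 TRA reads (20.5%) in 2 clonotypes, and Klrb1c was at 0 there. In the other 7 libraries there were 0 such reads, which allows a share of up to 0.0424% of TRA reads in the maternal uninjected library and up to 2.36% in that labelled maternal DC-depleted pIUT. These limits cover the counting of reads only, and the TRA reads of these libraries fell in 288 and 17 clonotypes.

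Among the 9 genes, the pattern of Klrd1 over the 8 libraries was the closest to the mean of the other 8 (Pearson r of log2(CPM + 1) 0.93, 8 libraries, a description with no test), and those of Klrk1 (0.56) and Klrc1 (0.56) were the least close. Of 12801 other genes compared with the mean of the 9, Apol7e (r 0.95), Pdlim4 (0.95), Actn2 (0.95), Hpse (0.95) and AI506816 (0.95) had the most similar patterns. The counts of Hpse, which encodes heparanase, were 912 in the maternal uninjected library, 427 in recipient pIUT, 645 in recipient DC-depleted pIUT and 0 in the other 5. These points share libraries, depth and scaling.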

How the data were processed

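The authors sequenced RNA and deposited estimated counts per gene, which were not normalized. They come from salmon, run by an nf-core pipeline, while the methods name featureCounts. The build was GRCm39, per the labels. The authors also deposited MiXCR tables, in which the count is the number of reads of a clonotype. Between 6.14% and 11.5% of values in a library were not whole, and all were rounded. Of the 8 columns, 0 were left out.

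CPM used library sizes scaled by TMM in edgeR 4.0.16 (R 4.3.3). Counts of 3 or fewer were set to 3 in ratios, and a gene was tested where either library had at least 10 counts. Other steps ran in Python 3.11.15 with pandas 2.3.3, scipy 1.17.1, numpy 2.4.6 and, for figures, matplotlib 3.10.9. The calls were also run on simulated counts with known changes and counting error only. These hold no spread between pools, so they cannot show how the calls behave between single pools, and no result is drawn from them. Positions and windows come from GRCm39 with a GENCODE annotation in which 97.99% of identifiers matched. The windows were those before canonical transcripts of protein-coding genes.

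The 9 genes and 16 further lists were chosen with earlier results of these data known. All 9 genes are named. The genes named of each other list come from the up to 4 past 4-fold in a comparison with the highest CPM in any library, apart from Hcst, Klrc2, Klra5 and Cd8a, which were added after values were seen. Not all genes that this rule gives are reported here, and lists of other cell types are given mostly as sums. The 5 genes of most similar pattern were taken from those with at least 10 counts in 3 libraries and over 5 CPM in 1. Genes at 3 counts or fewer in every library numbered 1 of 20 among the lectin-like receptors, 1 of 17 among the surface receptors, 2 of 12 among the markers of innate lymphoid cells and 3 of 6 among those of trophoblast. Tcrg-C1 was not used here, so that 181 of 182 listed genes were counted. Alternatives were DESeq2 1.42.0 size factors, library size alone or without its 20 most abundant genes, scaling by Ptprc, edgeR's fold change at a dispersion of 0.4, a floor of 10 counts, thresholds of 2-fold and 8-fold, other count filters, and counts not rounded.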

Additional observations from a re-analysis of the deposited data

Results flagged for a closer look

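In 11 cases, over 5 of the 9 genes, the ratio to uninjected passed 4-fold in opposite directions in recipient and maternal libraries. Opposite ratios within 4-fold in either origin, such as those of Klrk1, are not counted. The share of all genes with such opposite ratios was not counted, so the 11 are not read as particular to these genes. Counted alone, 45.0%, 45.4% and 47.1% of all genes were higher in recipient mIUT, pIUT and DC-depleted pIUT. In those labelled maternal, 36.4%, 23.7% and 26.1% were lower. The values are recipient minus maternal log2 ratios, with counts of 3 or fewer set to 3, and the difference was not tested. Each is a lower bound, as all 5 genes were at 0 in the recipient uninjected library. After DC control mIUT the difference was at least 13.36 for Ncr1 and 14.22 for Klrb1c. After DC control pIUT it was at least 19.54 for Ncr1, 19.90 for Klrb1c, 13.80 for Klrg1 and 10.02 for Eomes. After DC-depleted pIUT it was at least 19.37 for Ncr1, 16.22 for Klrb1c, 11.90 for Klrg1, 10.96 for Eomes and 15.84 for Tbx21. The direction in both origins turns on the uninjected libraries, of which the maternal one had all 9 genes above 3 counts and the recipient one had Ncr1, Klrb1c, Klrg1, Eomes and Tbx21 at 0.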

How the results depend on the processing

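Of 264 counts of higher or lower genes over 12 comparisons and their alternatives, 241 stayed within 1.5 times the main count and 23 moved. Levels and ratios moved more often. Of the CPM values 215 stayed and 73 moved. Of the log2 ratios 495 stayed and 187 moved, beside 11 past 4-fold that changed sign. Relative to Ptprc, whose 87 counts in the library labelled maternal DC-depleted pIUT set the scale there, that library against uninjected had 1 gene higher and 2 lower, and against DC control pIUT 4 higher and 1 lower. Recipient over maternal on the same scale gave 0 higher in mIUT, 3 higher in pIUT, and 2 higher and 4 lower in DC-depleted pIUT. Of the log2 ratios past 4-fold, 11 changed sign, all on this scale, which moved the median over all genes to 6.43, 4.67 and -5.34 in the 3 comparisons concerned and says nothing of the stability of the 9 genes among all genes. They were 1.47 for Klrd1, 4.23 for Klrc1 and 0.46 for Eomes in that library against uninjected, 2.65 for Klrc1 and 2.63 for Klre1 against DC control pIUT, and -0.98 for Klrb1c, -2.46 for Klrd1, -2.42 for Klrc1, -2.20 for Klre1, -2.61 for Klrg1 and -1.57 for Eomes in recipient over maternal DC-depleted pIUT. The values of Eomes and Klrg1 rest on a count of 0 set to 3 and say nothing of these genes. Of the ratios within 4-fold, 11 changed sign under at least 1 scaling (Klrk1, Klrc1, Tbx21, Klrd1 and Klre1), 10 of them relative to Ptprc and 4 with library size alone. At 8-fold, maternal DC-depleted against DC control pIUT had 2 lower, recipient pIUT against uninjected 0 lower, and recipient over maternal mIUT 2 higher and 1 lower. At 2-fold, recipient pIUT and DC-depleted pIUT against uninjected had 2 and 1 lower, recipient DC-depleted against DC control pIUT 2 higher and 1 lower, and recipient over maternal uninjected 1 higher (25.1% of all genes). Apart from that share and those given above for DC depletion in recipient cells, shares of all genes at 8-fold and 2-fold are not given. The counts at these thresholds show only how they depend on the threshold, and are not read against a background. With at least 50 counts there were 0 higher in maternal DC-depleted against DC control pIUT, in recipient mIUT against uninjected and in recipient over maternal mIUT. With a floor of 10 counts these last 2 had 1 and 0 higher. DESeq2 size factors gave 1 lower in recipient DC-depleted pIUT against uninjected, where Klre1 is close to 4-fold. No count moved by over 1.5 times with library size alone, library size without the 20 most abundant genes, the edgeR fold change, no count filter or counts not rounded. These scalings shift the median over all genes, by up to 0.63 (log2) with library size alone, 0.58 without the 20 genes, 0.31 with DESeq2 size factors and 6.44 relative to Ptprc. The cause of these moves was not tested beyond the construction of each alternative. No fit that pairs the origins over the 4 treatments was made, as it would average over the treatments compared here.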
